A study of Mus musculus with 5 samples.

Results

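The 9 genes followed here mark retinal microglia or serve in phagocytosis in the injured mouse retina, and are Aif1, Cd68, P2ry12, Tmem119, Cx3cr1, Csf1r, Trem2, Tyrobp and Itgam. They were chosen by name, and all 9 of 9 were found among the 25655 gene symbols counted and passed the filter on low counts, as did 14992 genes in all. Retinas of wildtype C57BL/6 mice of both sexes, aged 8 to 10 weeks, were taken 7 days after optic nerve crush (ONC), an injury to the axons of the retinal ganglion cells. The mice received Sorbinil, an inhibitor of aldose reductase, at 10 mg/kg into the peritoneum each day from the day before the crush, or its vehicle DMSO. Total RNA of the whole retina was sequenced for 3 retinas of the DMSO group, numbered 1 to 3, and for 2 of the Sorbinil group, numbered 1 and 3. Every retina was injured, so the values hold no uninjured level, and Sorbinil replicate 2, which the authors excluded after a principal component analysis, was not analysed here.

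Microglia are the resident macrophages of the retina. In the healthy tissue they sit in the plexiform layers, survey it with fine processes, and depend on signalling through Csf1r to survive. After axon injury they retract those processes, migrate and take up debris. Csf1r, Cx3cr1, P2ry12 and Tmem119 are counted as genes of homeostatic microglia, Aif1 (Iba1) and Itgam (CD11b) as general myeloid markers, and Cd68, Trem2 and Tyrobp as genes of the phagocytic programme. None of these genes is expressed by neurons at a comparable level, so their levels in whole retina stand for a small minority of its cells. In such bulk tissue, fewer microglia and less of an RNA in each microglial cell cannot be told apart.

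The lineage factor PU.1, encoded by Spi1, binds a purine-rich core that is often written GAGGAA. The 250 bases ahead of the start were at hand for 6 of the 9 members in RefSeq (GRCm38.p6), and the letters GAGGAA were searched on both strands. They stood in 4 of these 6 windows (Aif1, Cd68, Itgam and Trem2), compared to 23.3% of 32851 promoter windows of the same length, and were not found in those of Cx3cr1 and P2ry12. The windows of 3 members are shown 5′ to 3′ on the strand of the gene, with a match in capitals (GAGGAA, or TTCCTC where it lies on the other strand). That of Aif1 (chr17:35176053-35176302, minus strand) holds the match closest to a start, 7 bases before it, that of Itgam (chr7:128062390-128062639, plus strand) holds 1 match on each strand, 84 and 15 bases before the start, and that of Cx3cr1 (chr9:120068297-120068546, minus strand) has none.
Aif1: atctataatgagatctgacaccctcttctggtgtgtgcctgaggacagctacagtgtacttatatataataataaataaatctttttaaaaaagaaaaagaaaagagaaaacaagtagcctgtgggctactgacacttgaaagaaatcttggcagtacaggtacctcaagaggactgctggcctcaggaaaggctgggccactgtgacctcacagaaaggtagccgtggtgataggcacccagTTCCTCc
Itgam: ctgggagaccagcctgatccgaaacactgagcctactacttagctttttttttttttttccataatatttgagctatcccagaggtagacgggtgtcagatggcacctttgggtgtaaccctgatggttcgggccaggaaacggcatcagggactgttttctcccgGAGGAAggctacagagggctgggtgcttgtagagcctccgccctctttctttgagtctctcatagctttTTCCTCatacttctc
Cx3cr1: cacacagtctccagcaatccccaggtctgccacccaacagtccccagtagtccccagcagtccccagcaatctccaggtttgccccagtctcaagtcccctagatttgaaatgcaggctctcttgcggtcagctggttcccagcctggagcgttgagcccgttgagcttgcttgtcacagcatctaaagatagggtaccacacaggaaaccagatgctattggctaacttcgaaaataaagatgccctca
A match of these letters is a description of the window and not a binding site. Spi1 itself, named for this search and not by the rule for named genes, was at 1.42, 1.54 and 0.612 CPM (counts scaled to a common, TMM-normalized library size) in the DMSO retinas and at 0.628 and 1.02 CPM in the Sorbinil retinas, here and below in the order of their numbers. The Sorbinil values lay within the range of the DMSO values, with a log2 fold change of -0.53 ± 0.50 (SE).

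Counts on genes totalled 56096541 to 90288552 per retina. The libraries were not alike: in Sorbinil replicate 1, 2605 genes were at least 2-fold lower than the DMSO mean, compared to 137 in Sorbinil replicate 3 and 32 to 68 in the DMSO retinas. Reads of 4 Y-linked genes marked DMSO replicates 1 and 2 and Sorbinil replicate 1 as male (16268 to 17064 counts) and DMSO replicate 3 and Sorbinil replicate 3 as female (2 to 4 counts). The values of the members are therefore also given without Sorbinil replicate 1 and within each sex.

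To compare members with each other, CPM were divided by the length of the Ensembl canonical transcript in GENCODE vM39. In DMSO retinas the highest levels per kilobase were those of Csf1r, the receptor for Csf1 and Il34, at 7.13 ± 1.26 CPM per kb (SD, n = 3), and Tyrobp, the adaptor DAP12, at 7.08 ± 1.83 CPM per kb. Cx3cr1, the fractalkine receptor, followed at 4.32 ± 0.81 and Trem2, a lipid-sensing receptor that signals through Tyrobp, at 3.61 ± 0.72 CPM per kb. Tmem119, a membrane protein widely used as a microglial marker, was at 2.86 ± 0.41, the lysosomal glycoprotein Cd68 at 2.73 ± 0.79, the ADP receptor P2ry12 at 2.64 ± 0.34 and Itgam at 2.43 ± 0.73 CPM per kb. Aif1, an actin-binding protein, was lowest at 0.288 ± 0.073 CPM per kb. The ranges of neighbours in this order over the 3 DMSO retinas overlapped except at 2 places, between Tyrobp and Cx3cr1 and between Itgam and Aif1. Within each DMSO retina, Cx3cr1 was also above Trem2, and Trem2 above Tmem119. The other overlapping neighbours changed places between retinas. The order, and the gaps in it, depend on the transcript taken as the length. Aif1 was divided by 3425 bases, and a shorter transcript would give it a higher level, which was not computed. With all annotated exons of a gene joined, Trem2 was at 0.794 CPM per kb and Aif1 at 0.233 CPM per kb, and Tyrobp led at 6.30 CPM per kb.

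Csf1r and Cx3cr1 were the members with the largest difference in Sorbinil replicate 1. Csf1r was at 45.3, 49.5 and 34.7 CPM in the DMSO retinas, and at 18.6 and 40.5 CPM in the Sorbinil retinas. Only Sorbinil replicate 1 lay below the DMSO retinas, while replicate 3 lay among them. The log2 fold change of Sorbinil against DMSO was -0.55 ± 0.35 (SE), with a 95% interval from -1.41 to 0.32. Cx3cr1, through which microglia sense the neuronal chemokine Cx3cl1, was at 18.1, 17.9 and 12.8 CPM in the DMSO retinas and at 6.98 and 14.7 CPM in the Sorbinil retinas. It had the same arrangement as Csf1r, with a log2 fold change of -0.58 ± 0.35 (-1.45 to 0.29).

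P2ry12 and Tmem119, the other 2 homeostatic genes, were at similar CPM. P2ry12, which guides the extension of processes towards ADP released by damaged cells, was at 6.57, 6.981 and 5.40 CPM in DMSO retinas and at 3.63 and 6.998 CPM in Sorbinil retinas. The Sorbinil retinas thus held both its lowest value and its highest, and the log2 fold change was -0.25 ± 0.32 (-1.04 to 0.54). Tmem119 was at 7.02, 6.93 and 5.38 CPM in DMSO retinas and at 3.46 and 5.57 CPM in Sorbinil retinas. Its log2 fold change of -0.51 ± 0.28 (-1.19 to 0.17) had the smallest p-value of the 9 members, an unadjusted 0.115 in edgeR's quasi-likelihood test.

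Of the myeloid markers, Aif1 was counted least. It had 92, 100 and 42 counts in DMSO retinas and 27 and 64 counts in Sorbinil retinas, that is 0.951, 1.25 and 0.756 CPM against 0.514 and 0.943 CPM. Its log2 fold change of -0.43 ± 0.41 ranged from -1.45 to 0.59 at 95% confidence. Itgam, the alpha chain of complement receptor 3, was at 8.59, 12.02 and 6.64 CPM in DMSO retinas and at 4.49 and 9.86 CPM in Sorbinil retinas. DMSO replicate 2 was the highest retina and Sorbinil replicate 3 the next, and the log2 fold change was -0.34 ± 0.41 (-1.36 to 0.68).

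The remaining members, Trem2, Tyrobp and Cd68, serve the uptake and digestion of debris. Trem2 was at 3.73, 4.79 and 3.26 CPM in DMSO retinas and at 2.63 and 3.23 CPM in Sorbinil retinas. It was the single member for which both Sorbinil retinas lay below every DMSO retina, by a margin that was narrow for replicate 3, and its log2 fold change was -0.42 ± 0.26 (-1.07 to 0.22). Tyrobp was at 4.11, 5.49 and 3.29 CPM in DMSO retinas and at 3.10 and 4.08 CPM in Sorbinil retinas, with a log2 fold change of -0.26 ± 0.29 (-0.99 to 0.47). Cd68, the lysosomal protein by which active phagocytes are often stained, was at 3.18, 4.25 and 2.38 CPM in DMSO retinas and at 1.69 and 2.93 CPM in Sorbinil retinas. Here again Sorbinil replicate 3 lay among the DMSO retinas, and the log2 fold change was -0.50 ± 0.38 (-1.43 to 0.43).

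**Figure D1:**
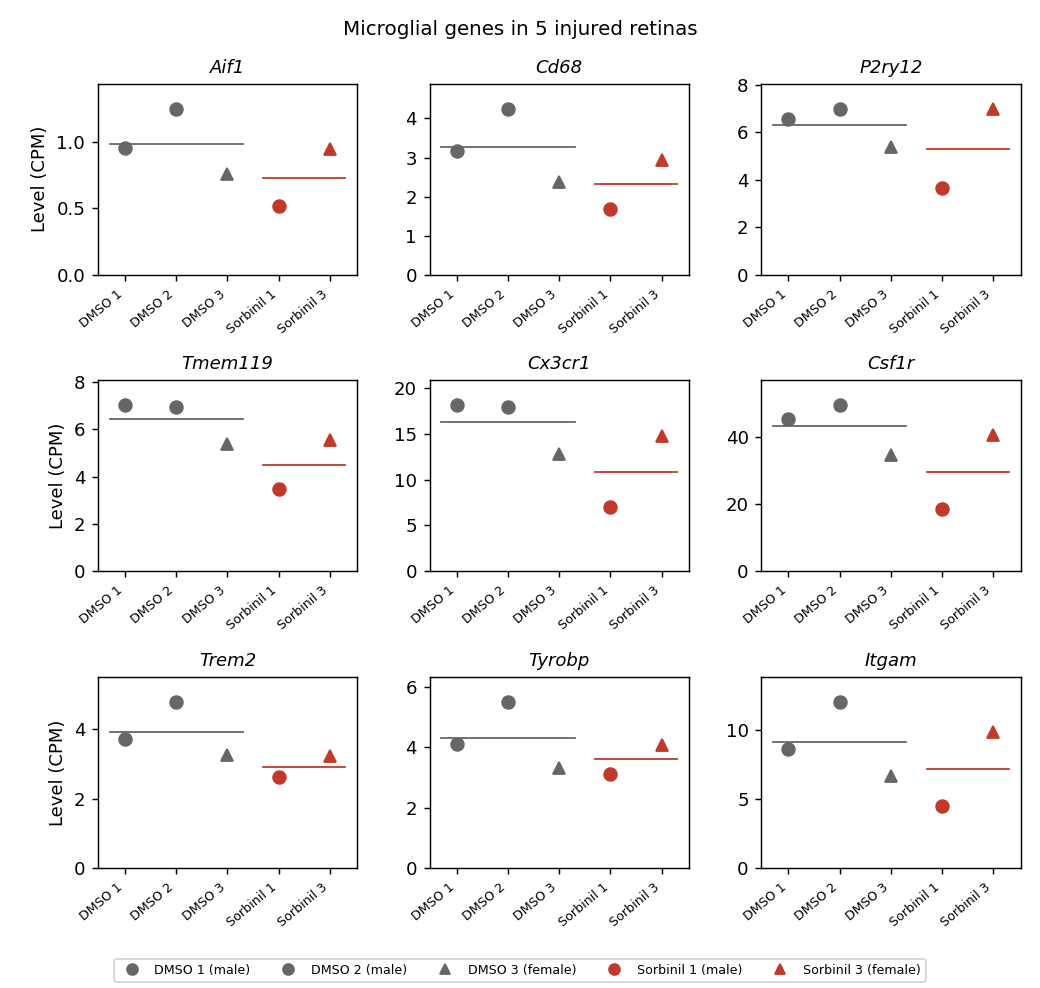
Level of each of the 9 members in CPM (linear axis from 0) in the 3 DMSO retinas (grey) and the 2 Sorbinil retinas (red), with circles for male and triangles for female retinas and a line at each group mean. Sorbinil replicate 1 is the lowest retina in every panel, at 18.6 CPM for Csf1r compared to 34.7 to 49.5 CPM in DMSO retinas, and Sorbinil replicate 3 stands among or close to the DMSO retinas.

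Over both Sorbinil retinas, all 9 members had a log2 fold change below 0, as had 51.0% of all genes tested, and none passed a test. The study's threshold is an unadjusted p-value of at most 0.1 with at least a 2-fold change. No member met it in the lower direction, compared to 1.35% of all genes, and 0 of 9 had an unadjusted p-value under 0.05, compared to 5.01% of all genes. Adjusted p-values of the members ran from 0.758 to 0.801 (edgeR quasi-likelihood test, Benjamini-Hochberg over 14992 genes), and no gene of the whole table was under 0.05, although 751 were so before adjustment. For 1 of 9 members, Trem2, the groups did not overlap, compared to 10.5% of all genes in that direction, with an exact two-sided permutation p of 0.2 (smallest possible 0.1). The median log2 fold change was -0.43 for the members and -0.008 for all genes. With the DESeq2 Wald test, 0 of the 9 members were under an unadjusted 0.05 as well. The 95% intervals from 2 and 3 retinas include a 2-fold lower level for every member except Tyrobp, and no difference at all for every member.

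The values turned on Sorbinil replicate 1. All 9 members had their lowest level there, as had 39.2% of all genes. Against the DMSO mean, the log2 level of Sorbinil replicate 1 ran from -1.20 for Cx3cr1 and Csf1r to -0.44 for Tyrobp, and that of Sorbinil replicate 3 from -0.26 for Trem2 to 0.16 for P2ry12 and Itgam. Without Sorbinil replicate 1, the median log2 fold change of the members was -0.08 and 7 of 9 were below 0, with P2ry12 at 0.16 and Itgam at 0.13. Without Sorbinil replicate 3, the median was -0.94 and 3 of 9 members (Cx3cr1, Csf1r and Itgam) met the study's threshold, but so did 17.4% of all genes in the lower direction. In that fit 6 members were under an unadjusted 0.05, compared to 48.7% of all genes. DMSO replicate 2, the highest retina for 6 members, mattered for Itgam and Tyrobp, whose log2 fold changes were -0.09 and -0.04 without it.

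**Figure D2:**
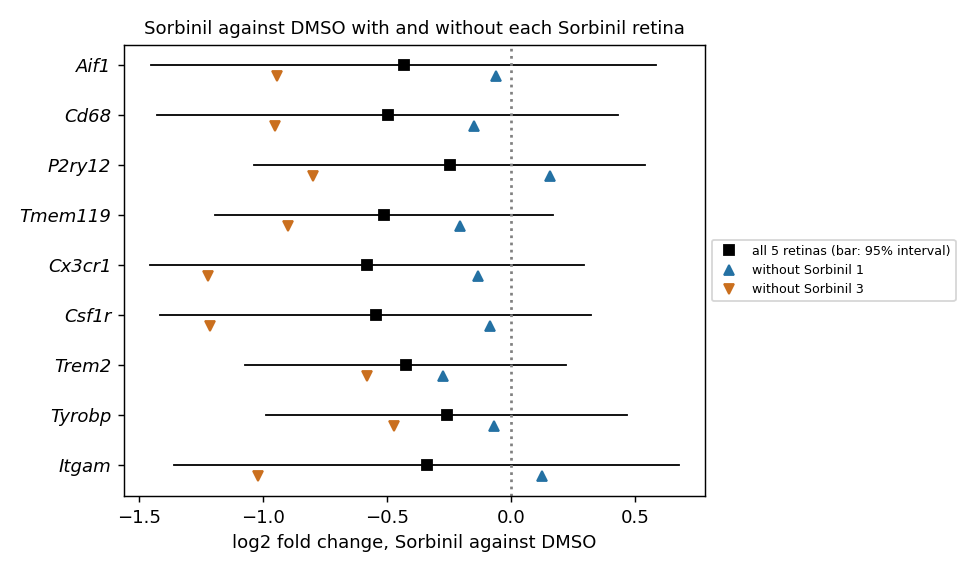
Log2 fold change of Sorbinil against DMSO for each member with all 5 retinas (squares, with 95% intervals) and with Sorbinil replicate 1 (upward triangles) or Sorbinil replicate 3 (downward triangles) left out. Every interval spans 0, and the estimates run from -1.22 to -0.47 without Sorbinil replicate 3 and from -0.28 to 0.16 without Sorbinil replicate 1.

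Sex and treatment could be set side by side because each group held a male and a female retina. Among male retinas, Sorbinil replicate 1 was below both DMSO retinas for 9 of 9 members, compared to 44.9% of all genes. Cx3cr1 was at 0.388 times the pooled male DMSO level (exact 95% interval 0.347 to 0.432, counting error only), Csf1r at 0.395 (0.369 to 0.422) and Itgam at 0.443 (0.385 to 0.507). Tyrobp at 0.655 (0.551 to 0.776) and Trem2 at 0.623 (0.516 to 0.748) were the least reduced. Among female retinas, Sorbinil replicate 3 was above DMSO replicate 3 for 8 of 9 members, compared to 50.4% of all genes. Itgam was at 1.48 times the level of DMSO replicate 3 (1.30 to 1.69), P2ry12 at 1.30 (1.119 to 1.503) and Csf1r at 1.17 (1.10 to 1.24), whereas for Aif1, Cd68, Tmem119 and Trem2 the interval included 1.

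Each sex held 1 Sorbinil retina, so a difference of the effect between the sexes was not tested, and the sex of the animal and the single retina cannot be told apart. DMSO replicate 3, the female DMSO retina, was below both male DMSO retinas for 9 of 9 members, as it was for 39.2% of all genes. With sex as an added term, the log2 fold changes of the members ran from -0.66 for Cx3cr1 to -0.22 for Tyrobp.

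Counts of one member set against another within a retina do not depend on the library's scaling. Cx3cr1 and Csf1r kept a nearly fixed ratio, at 39.96, 36.2 and 36.8 counts of Cx3cr1 per 100 counts of Csf1r in the DMSO retinas and 37.5 and 36.4 in the Sorbinil retinas. Their profiles over the 5 retinas were also as close as those of any pair, with a root mean square difference of 0.052 in centred log2 CPM, equal to that of Aif1 and Cd68. Tyrobp stood at 9.07, 11.1 and 9.49 counts per 100 of Csf1r in DMSO retinas, at 16.6 (95% interval 14.0 to 19.7) in Sorbinil replicate 1 and at 10.1 in Sorbinil replicate 3. Trem2, like its adaptor, was highest in Sorbinil replicate 1, at 14.1 (11.7 to 16.9). It was at 8.24, 9.69 and 9.38 in DMSO retinas and lowest in Sorbinil replicate 3, at 7.97 (6.91 to 9.14). In Sorbinil replicate 1 these ratios thus lay above those of the other 4 retinas by more than the counting error, which is a lower limit since the reads carry no molecular identifiers. The ratio of P2ry12 to Csf1r was 14.1 to 15.6 per 100 in DMSO retinas. It was 19.5 (16.6 to 22.8) in Sorbinil replicate 1 and 17.3 (15.6 to 19.1) in Sorbinil replicate 3. Both intervals overlapped that of DMSO replicate 3 (13.7 to 17.6).

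**Figure D3:**
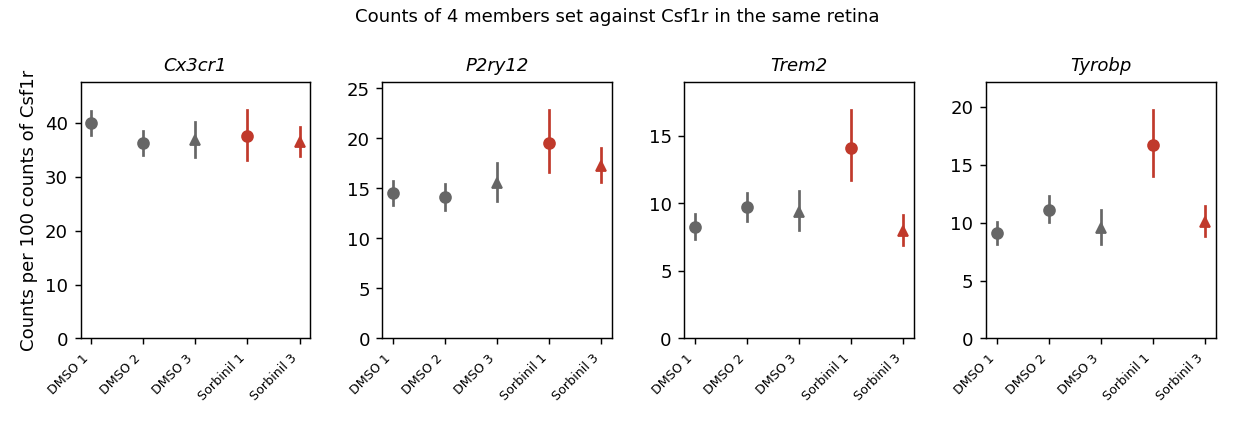
Counts of Cx3cr1, P2ry12, Trem2 and Tyrobp per 100 counts of Csf1r in the same retina (linear axes from 0), with exact 95% intervals for counting error, DMSO in grey and Sorbinil in red. The ratio of Cx3cr1 is 36.2 to 39.96 in all 5 retinas, while those of Trem2 and Tyrobp are highest in Sorbinil replicate 1, at 14.1 and 16.6.

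Itgam and Cd68 set against P2ry12 were highest in a different retina. Itgam, which neutrophils and monocytes also express, was at 172 counts per 100 counts of P2ry12 in DMSO replicate 2 (95% interval 155 to 192), compared to 123 to 141 in the other retinas, of which Sorbinil replicate 3 (125 to 159) had an interval that overlapped it. Against Csf1r, DMSO replicate 2 did not stand apart, with 24.3 counts of Itgam per 100, compared to 19.0 and 19.1 in the other DMSO retinas and 24.1 and 24.3 in the Sorbinil retinas. Cd68 was at 60.9 per 100 of P2ry12 there (53.1 to 69.9), compared to 41.9 to 48.3 elsewhere, and this interval overlapped those of DMSO replicates 1 (42.1 to 55.5) and 3 (35.6 to 54.2) and Sorbinil replicate 1 (35.8 to 60.2). The 6 listed neutrophil markers summed to 1.98 CPM in DMSO replicate 2 and to 0.036 to 0.352 CPM in the other DMSO retinas. In the Sorbinil retinas they summed to 0 and 0.030 CPM. Ngp and Camp had 5 and 4 counts in DMSO replicate 2 and 0 counts in every other retina. Mmp8 had 7 counts in DMSO replicate 2, 1 count in DMSO replicate 1 and 0 counts in the others. The 10 markers of other macrophages and monocytes summed to 13.9 to 16.0 CPM in DMSO retinas. They summed to 5.21 and 13.8 CPM in Sorbinil retinas, mostly from Lyve1 and Vcan. Lyve1 alone was at 13.4, 9.38 and 12.5 CPM in DMSO retinas and at 2.87 and 9.02 CPM in Sorbinil retinas. Of the 4 markers on this list that were tested, 1 had a log2 fold change below 0 (background 51.0% of genes). Their median was 0.17. Ccr2, a receptor of recruited monocytes, had 15 counts in DMSO replicate 2 and 0 to 2 counts elsewhere. The 6 T cell markers summed to 0.32 to 0.55 CPM, mostly from Cd4 and Cd8a, with Trac at 0 in every retina. Cd3d, Cd3e and Cd3g had 1, 4 and 2 counts in DMSO replicate 2 and 0 counts in every other retina. The part of these cells in the values of Itgam and Cd68 was not tested.

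The partners of the members were read from lists. All 7 ligands had a log2 fold change below 0 (background 51.0% of genes), with a median of -0.75. The study's threshold was met in the lower direction by 0 of 7 (background 1.35% of genes). Csf1, a ligand of Csf1r, was at 11.96 ± 2.65 CPM (SD, n = 3) in DMSO and 7.85 ± 3.43 CPM (SD, n = 2) in Sorbinil retinas, and Il34, the other ligand of that receptor, was at 3.00 ± 0.25 and 1.73 ± 1.26 CPM. Cx3cl1, the ligand of Cx3cr1, was at 100.0, 94.4 and 71.7 CPM in DMSO retinas and at 26.0 and 93.4 CPM in Sorbinil retinas, so that it was low in the same single retina as its receptor. Of the lipoproteins that bind Trem2, Apoe was at 442 ± 52 CPM in DMSO and 292 ± 182 CPM in Sorbinil retinas, and Clu at 1230 ± 239 and 729 ± 391 CPM. Both Sorbinil values of Clu lay below the DMSO values, narrowly for replicate 3 (1006 CPM, compared to 1016 CPM in DMSO replicate 3). The groups did not overlap in this direction for 3 of 7 ligands (Clu, Il34 and Icam1), compared to 10.5% of all genes. Icam1, a ligand of Itgam, was at 1.62 ± 0.45 and 0.953 ± 0.298 CPM. C3, whose fragment iC3b is bound by complement receptor 3, was at 15.8 CPM in DMSO replicate 2 and at 2.56 to 4.23 CPM in the other 4 retinas, and without that DMSO retina its log2 fold change of -1.07 ± 0.81 turned to 0.10.

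Among genes that act downstream of Trem2, Tyrobp and Itgam, 10 of 10 tested had a log2 fold change below 0 (background 51.0% of genes). Their median was -0.63. The study's threshold was met in the lower direction by 1 of 10, compared to 1.35% of all genes. For 3 of 10, both Sorbinil retinas lay below every DMSO retina, compared to 10.5% of all genes. Plcg2, the phospholipase that carries Trem2 signals, was at 2.85, 3.20 and 2.18 CPM in DMSO and 1.22 and 1.80 CPM in Sorbinil retinas, with a log2 fold change of -0.86 ± 0.31 (unadjusted p = 0.035). Its groups did not overlap, and it did not pass adjustment (adjusted p = 0.758 in edgeR). Itgb2, the beta chain that pairs with Itgam, had a log2 fold change of -0.69 ± 0.36, the kinase Syk of -0.72 ± 0.42, the exchange factor Vav1 of -0.56 ± 0.41 and the kinase Btk of -0.37 ± 0.43. Fermt3, which activates integrins, was at -0.75 ± 0.48, Card9 at -0.35 ± 0.75 and the kinase Lyn at -0.46 ± 0.30, whereas Inpp5d, a phosphatase that restrains this pathway, was at -0.19 ± 0.22. Hcst, a second adaptor related to Tyrobp, did not pass the filter on low counts, at 0.038 to 0.144 CPM.

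All 9 transcription factors of the myeloid lineage were below 0, compared to 51.0% of all genes, with a median log2 fold change of -0.32. The threshold was met in the lower direction by 0 of 9 (background 1.35% of genes). Cebpb was at 5.35 ± 1.31 CPM in DMSO and 3.57 ± 1.26 CPM in Sorbinil retinas, Irf5 at 2.06 ± 0.38 and 1.42 ± 0.45 CPM and Cebpa at 5.26 ± 1.02 and 4.25 ± 1.16 CPM.

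Of the other microglial genes, 12 of 13 homeostatic and 11 of 16 activated genes had their lowest level in Sorbinil replicate 1, compared to 39.2% of all genes. Of the 13 homeostatic genes, 12 had a log2 fold change below 0 (background 51.0% of genes), with a median of -0.45. Of these 13, 0 met the threshold in the lower direction (background 1.35% of genes). Among them the ectonucleotidase Entpd1 had a log2 fold change of -0.77 ± 0.37, the ADP receptor P2ry13 of -0.72 ± 0.39, the transporter Slco2b1 of -0.69 ± 0.36 and the secreted Olfml3 of -0.34 ± 0.27. Of 16 genes of activated microglia tested, 14 were below 0 (background 51.0% of genes), with a median of -0.37. Of these 16, 0 met the threshold in the lower direction (background 1.35% of genes). The protease Ctss was at 38.2, 43.7 and 26.0 CPM in DMSO and 15.6 and 27.2 CPM in Sorbinil retinas (-0.75 ± 0.32). Cst7 had a log2 fold change of -0.92 ± 0.52 and Ch25h of -1.60 ± 0.88, the last from at most 61 counts. Ch25h was at 0.486, 0.763 and 0.090 CPM in DMSO and 0.133 and 0.162 CPM in Sorbinil retinas, so its lowest value was that of DMSO replicate 3. The abundant genes of that list that other retinal cells also express were at -0.15 ± 0.16 (Ctsb), -0.38 ± 0.30 (Cd9) and 0.07 ± 0.16 (Ctsz).

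A pair of lists described the uptake and digestion of debris. Of 17 phagocytic receptors and bridging proteins, 14 were below 0 (median -0.58), compared to 51.0% of all genes. The study's threshold was met in the lower direction by 0 of 17, compared to 1.35% of all genes. An unadjusted p-value under 0.05 (edgeR) was held by 2 of 17, compared to 5.01% of all genes. Cd14, a co-receptor for lipopolysaccharide, was at 1.55, 1.60 and 1.49 CPM in DMSO retinas and at 0.647 and 0.899 CPM in Sorbinil retinas, so that the groups were apart by more than the spread between the DMSO retinas. That difference, -0.997 ± 0.293 on the log2 scale, was just short of 2-fold and had an unadjusted p-value of 0.016 (adjusted p = 0.758, edgeR). Under some alternatives, given at the end, Cd14 met the study's threshold. Cd36, a scavenger receptor that endothelium also expresses, was at 4.15, 5.69 and 4.46 CPM against 1.66 and 3.28 CPM (-0.94 ± 0.36), and Fcgr1, an Fc receptor, at 2.07, 2.23 and 1.60 CPM against 1.22 and 1.34 CPM (-0.62 ± 0.28). The bridging proteins Mfge8 (-0.09 ± 0.20) and Gas6 (0.30 ± 0.25) and the receptor Sirpa (0.15 ± 0.15), all abundant outside microglia, had values near or above 0. Of 11 phagosome and lysosome genes, 9 were below 0 (median -0.52), compared to 51.0% of all genes. The threshold was met in the lower direction by 0 of 11 (background 1.35% of genes). The oxidase subunit Ncf1 was at 2.87, 3.08 and 2.81 CPM against 1.20 and 2.06 CPM (-0.83 ± 0.31, unadjusted p-value 0.037), and the actin regulator Coro1a had a log2 fold change of -0.52 ± 0.25. The lysosomal genes Ctsd (-0.16 ± 0.13), Lamp1 (0.04 ± 0.19) and Lamp2 (0.06 ± 0.12) differed by less than 2 SE. So did each of the 9 members. For 3 of the 11 genes, Ctsd among them, both Sorbinil retinas lay below every DMSO retina, compared to 10.5% of all genes. Against the DMSO mean, the median log2 level in Sorbinil replicate 3 was -0.19 for the ligands, -0.21 for the signalling genes, -0.08 for the factors, -0.09 for the homeostatic and for the activated genes, -0.21 for the phagocytic receptors and -0.28 for the phagosome genes. In Sorbinil replicate 1 these medians lay between -1.42 for the ligands and -0.79 for the factors.

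The low level of the members in Sorbinil replicate 1 was set beside the markers of other retinal cells. In that retina the members summed to 45.1 CPM, 0.481 times the DMSO mean, while the DMSO retinas had 74.6 to 109 CPM and Sorbinil replicate 3 had 88.9 CPM. The 6 markers of Müller glia summed to 0.351 times their DMSO mean in Sorbinil replicate 1 (1928 compared to 5203 to 6050 CPM), the 4 of astrocytes to 0.349 times, the 7 of retinal ganglion cells to 0.345 times, the 8 of endothelium to 0.408 times and the 10 of bipolar and amacrine cells to 0.501 times. In contrast, the 10 rod markers summed to 1.498 times their DMSO mean there (135430 compared to 82258 to 97825 CPM) and to 0.767 times in Sorbinil replicate 3. Per 1000 CPM of the Müller glia markers, the members therefore stood at 16.1, 20.8 and 14.3 in DMSO retinas, at 23.4 in Sorbinil replicate 1 and at 16.2 in Sorbinil replicate 3. Per 1000 CPM of the bipolar and amacrine markers they stood at 48.0, 60.8 and 40.3 in DMSO retinas and at 47.6 and 41.7 in Sorbinil retinas. Per 1000 CPM of the rod markers they stood at 1.19, 1.20 and 0.762 in DMSO retinas and at 0.333 and 1.28 in Sorbinil retinas. Relative to Müller glia and to bipolar and amacrine cells, the members of Sorbinil replicate 1 were thus within or above the DMSO range, and relative to rods they were below it. In the 2-group test, 5 of 8 endothelial markers met the study's threshold in the lower direction, compared to 1.35% of all genes. The list's median log2 fold change was -1.47, and its median was -0.94 in Sorbinil replicate 3 against the DMSO mean. Sorbinil replicate 1 was lowest for 7 of these 8 markers but not for Pecam1, at 9.17 CPM there. The threshold was met by 1 of 6 markers of pericytes and smooth muscle. It was met by 0 of 9 members, 0 of 6 Müller glia markers and 0 of 10 rod markers. The part of the tissue's make-up or of the library in the members' values was not tested.

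**Figure D4:**
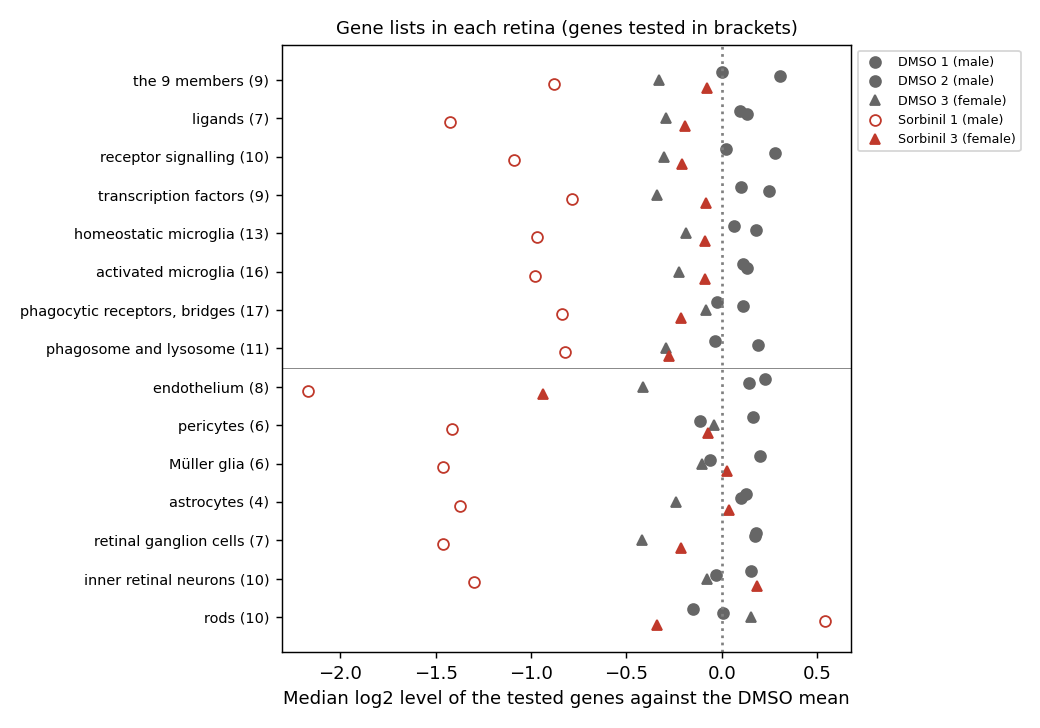
Median log2 level of the tested genes of each list against the DMSO mean, 1 point per retina, with circles for male and triangles for female retinas, DMSO in grey and Sorbinil in red (replicate 1 as open circles). The members' median is -0.88 in Sorbinil replicate 1 and -0.08 in Sorbinil replicate 3, and the medians in replicate 1 of Müller glia (-1.46), retinal ganglion cells (-1.46) and endothelium (-2.17) are lower still, while that of rods is 0.54.

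The genes whose profile over the 5 retinas was most like the mean profile of the members were Lyn, Psmb8, Csf3r, Anln and Tes, with root mean square differences of 0.045 to 0.062 in centred log2 CPM. Among the members this difference ran from 0.047 for Aif1 to 0.180 for Tyrobp, and 468 of 13046 genes with a mean of at least 1 CPM were as close as Tyrobp or closer. Lyn, at 5.36, 6.10 and 4.28 CPM in DMSO and 2.89 and 4.73 CPM in Sorbinil retinas, is on the list of signalling genes and Csf3r on that of homeostatic genes. Only 5 retinas make this a loose measure of likeness.

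The loci of the members were taken from GENCODE vM39, whose build, GRCm39, is that of the counts. Csf1r (chromosome 18, 61229714 to 61266535, plus strand) overlaps the locus of Hmgxb3 on the opposite strand. P2ry12 (chromosome 3, 59123682 to 59170429, minus strand) overlaps Med12l, which is read from the other strand and had 2027 to 4939 counts compared to 191 to 635 for P2ry12. Whether the counting used strand was not given, so reads of Med12l cannot be told apart from those of P2ry12 where they overlap. In Sorbinil replicate 1 the log2 level against the DMSO mean was -0.41 for Med12l and 0.37 for Hmgxb3, compared to -0.78 for P2ry12 and -1.20 for Csf1r. Itgam (chromosome 7, 127661808 to 127717753, plus strand) overlaps Gm49368 on its own strand, which had 0 to 2 counts. Tyrobp (chromosome 7, 30113170 to 30117010, plus strand) and Tmem119 (chromosome 5, 113931781 to 113938577, minus strand) overlap no annotated gene. Aif1 (chromosome 17, 35387384 to 35395053, minus strand), Trem2 (chromosome 17, 48653429 to 48661175, plus strand), Cd68 (chromosome 11, 69555037 to 69557067, minus strand) and Cx3cr1 (chromosome 9, 119877749 to 119898945, minus strand) each overlap an antisense noncoding transcript, for which the files list no counts under the annotated name.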

How the data were processed

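Total RNA of 5 injured retinas was sequenced. The authors removed adaptor sequence and aligned the reads to the mouse genome (GRCm39, mm39) with CLC Genomics Workbench. The deposited values are raw total counts of each gene. The annotation release, the treatment of reads on several genes and the use of strand are not given in the sources used here. The labels and the paper name different total RNA kits. Columns were matched to samples by name, and 0 value columns were left out.

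The quasi-likelihood test of edgeR 4.0.16 (R 4.3.3, limma 3.58.1) compared the groups, after filterByExpr by group with a minimum count of 10 and TMM scaling. P-values were adjusted over 14992 genes by the Benjamini-Hochberg method. Fold changes are Sorbinil against DMSO on the log2 scale. A prior count of 2 was added for log2 CPM. Exact permutation tests ran over all 10 groupings on log2(CPM + 0.01). The retinas are the replicates, and p-values measure the spread between them. No pair of retinas agreed within sampling noise (smallest ratio of chi-square to its degrees of freedom 25.5). Intervals of ratios are exact binomial (95%) and cover counting error only.

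The 9 members and the gene lists were chosen with earlier results of these data known. Beside the members, the genes named are all ligands and signalling genes, the 3 genes with the smallest p-value and the 3 with the highest CPM of each other microglial list, and the 5 genes with the nearest profile. Some genes that this rule takes are not reported here. Of 25655 symbols, 23488 were found in GENCODE vM39. Sequences are from RefSeq. The alternatives were other filters, scalings (DESeq2 1.42.0 size factors, upper quartile, library size), the DESeq2 Wald and edgeR likelihood ratio tests, other thresholds, a replicate block, a table without ribosomal RNA and mitochondrially encoded genes, and each retina left out in turn. Terms for sex, and offsets for transcript length and GC content, were chosen after seeing the counts. The fits were tested on simulated data.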

Additional observations from a re-analysis of the deposited data

Results flagged for a closer look

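For 8 of the 9 members the Sorbinil retina stood below the DMSO retinas among males and above the DMSO retina among females. Taken singly, the first held for 44.9% of all genes and the second for 50.4%. The share of all genes with both was not computed. The female DMSO retina was also below both male DMSO retinas for 9 of 9 members, as it was for 39.2% of all genes. The log2 level of Sorbinil replicate 1 minus the mean of the male DMSO retinas was -1.36 for Cx3cr1, -1.34 for Csf1r, -1.17 for Itgam, -1.11 for Cd68, -1.05 for Aif1, -1.005 for Tmem119, -0.89 for P2ry12 and -0.61 for Tyrobp. The log2 level of Sorbinil replicate 3 minus that of the female DMSO retina was 0.21 for Cx3cr1, 0.22 for Csf1r, 0.57 for Itgam, 0.30 for Cd68, 0.31 for Aif1, 0.0492 for Tmem119, 0.37 for P2ry12 and 0.31 for Tyrobp. The female difference was within counting error for Aif1, Cd68 and Tmem119. The difference between the sexes was not tested, since each sex held 1 Sorbinil retina, and sex and the single retina cannot be told apart.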

How the results depend on the processing

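With 2 Sorbinil and 3 DMSO retinas, depth limits Aif1 most (27 to 100 counts). All 9 members stayed below 0 and 0 met the study's threshold under the other filters and scalings, the DESeq2 Wald test, the likelihood ratio test and with sex in the model or GC and length offsets, with member medians between -0.51 and -0.39. Leaving out a retina gave 0 to 3 members meeting the threshold, 0 to 6 with an unadjusted p under 0.05 and medians from -0.943 to -0.0820. The values 3, 6 and -0.943 came without Sorbinil replicate 3, and -0.0820 without Sorbinil replicate 1.

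With the replicate number as a block, the members' median was -0.28 and 0 met the threshold. Retinas of the same number did not deviate together (correlations of -0.24 and -0.12), so the numbers were taken as names. Of all genes, 153 were called lower with the block and 203 without it.

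Of the gene values under an alternative, 843 kept their direction and side of the threshold, 35 passed it newly, 5 no longer passed it and 25 changed sign. Cd14 met the threshold with at least 10 counts in every retina (-1.002) and with upper-quartile scaling (-1.0003). It also did so with library size as the scaling (-1.077) and with the sex term (-1.036). Cd36 met it with the sex term (-1.062) and with the GC and length offsets (-1.080). The main values of Ctsz, Lamp1 and Lamp2 became -0.0222, -0.0878 and -0.0455 with the library size as the scaling. Those of C3 and Lamp1 became 0.115 and -0.00766 with the block, and those of Mfge8, Ctsd and Lamp2 became 0.110, 0.0157 and -0.0141 with the GC and length offsets. Over the fits that left out 1 retina each, log2 fold changes ran from -0.80 to 0.16 for P2ry12, from -1.02 to 0.13 for Itgam, from -1.77 to 0.0852 for Cx3cl1, from -1.476 to 0.104 for C3, from -0.94 to 0.0147 for Btk, from -2.545 to 0.43 for Card9, from -0.82 to 0.0316 for Olfml3, from -0.99 to 0.0585 for Cd9 and from -0.98 to 0.0366 for Anln. They ran from -0.0903 to 0.218 for Ctsz, from -0.30 to 0.00108 for Ctsb, from -0.38 to 0.16 for Mfge8, from -0.00517 to 0.31 for Sirpa, from -0.18 to 0.66 for Gas6, from -0.23 to 0.275 for Lamp1 and from -0.00442 to 0.10 for Lamp2. The cause of these changes was not tested.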
